A study of Mus musculus with 16 samples.

Results

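The genes examined were those of the imprinted Dlk1-Meg3 domain on mouse chromosome 12: Dlk1, Meg3, Rtl1, Rian, Mirg, Dio3 and Begain. Members were all non-control array probes whose RefSeq identifier belongs to 1 of these 7 genes, and 9 of the 55681 probes on the array met that rule. They covered 6 of the 7 genes, since no probe carried an identifier of Rian. The genes were chosen by a measured value, the log2 difference of Mirg between 3B3l-serum and J1-serum, which was already known to be among the greatest increases there, so that difference is given as a description. Expression was measured in mouse embryonic stem cells (mESCs) of 3 lines, each in serum or 2i, on 16 one-colour arrays. J1 is the wild-type male line from which the others were made. TKO is a J1 derivative in which the DNA methyltransferase genes Dnmt1, Dnmt3a and Dnmt3b are all knocked out. 3B3l, written 3B3-3l in the sample labels, lacks Dnmt3a and Dnmt3b and carries constitutively expressed exogenous copies of Dnmt3b and Dnmt3l. Serum medium held fetal calf serum and LIF at 500 U/ml. 2i medium held LIF at 1000 U/ml with the MEK inhibitor PD0325901 at 1 uM and the GSK3 inhibitor CHIR99021 at 3 uM, and cells stayed in it for 2 weeks. J1 cells in serum grew on inactivated SNLP feeder cells and all other cultures were without feeders, so feeders and line or medium cannot be told apart in comparisons with J1-serum. There were 4 arrays of J1-serum, 3 of J1-2i, 2 of TKO-serum, 3 of TKO-2i, 2 of 3B3l-serum and 2 of 3B3l-2i.

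The Dlk1-Meg3 domain is a textbook case of parental imprinting. Its protein-coding genes Dlk1, Rtl1 and Dio3 are expressed mainly from the paternal chromosome, whereas the non-coding transcripts Meg3, Rian and Mirg are expressed from the maternal chromosome. The choice is set by an intergenic region and by the Meg3 promoter, both of which carry DNA methylation on the paternal chromosome. Mirg and Rian host clusters of microRNAs and small nucleolar RNAs. In mESCs the non-coding side of the domain is known to be silenced in some cultures and lines.

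Promoter windows of Meg3, Dlk1 and Dio3 are shown for their unlike CpG content. Each window holds 300 bases (250 before the start and 50 after it, RefSeq on GRCm38.p6, plus strand), with CpG dinucleotides in capitals. Windows were found for 6 of the 7 genes and not for Rtl1. The Meg3 window is chr12:109540746-109541045, that of Dlk1 is chr12:109452573-109452872 and that of Dio3 is chr12:110278980-110279279.
Meg3: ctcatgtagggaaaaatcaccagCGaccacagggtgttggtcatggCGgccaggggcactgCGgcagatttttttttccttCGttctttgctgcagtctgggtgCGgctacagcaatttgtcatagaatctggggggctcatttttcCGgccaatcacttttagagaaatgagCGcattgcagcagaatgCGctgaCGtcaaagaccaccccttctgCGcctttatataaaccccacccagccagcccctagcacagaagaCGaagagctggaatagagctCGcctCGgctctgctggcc
Dlk1: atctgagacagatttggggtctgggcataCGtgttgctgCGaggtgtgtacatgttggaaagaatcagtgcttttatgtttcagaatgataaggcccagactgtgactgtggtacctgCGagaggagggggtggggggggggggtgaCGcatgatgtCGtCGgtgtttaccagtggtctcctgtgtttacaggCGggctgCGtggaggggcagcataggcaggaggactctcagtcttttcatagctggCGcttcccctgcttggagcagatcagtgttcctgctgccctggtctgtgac
Dio3: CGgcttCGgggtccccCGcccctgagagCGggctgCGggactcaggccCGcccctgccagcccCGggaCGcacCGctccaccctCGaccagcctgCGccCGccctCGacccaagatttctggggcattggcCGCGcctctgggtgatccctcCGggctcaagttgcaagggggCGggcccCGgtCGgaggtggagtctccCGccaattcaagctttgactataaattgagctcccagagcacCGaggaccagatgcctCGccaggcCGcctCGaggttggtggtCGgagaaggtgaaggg
The Meg3 window held 13 CpG, the Dlk1 window 9 and the Dio3 window 25, beside a median of 7 over 32851 windows. A second Meg3 start had 1 CpG, Mirg had 10, Rian had 0 and the 5 windows of Begain had between 34 and 46. The hexamer TGCCGC, searched on both strands, occurred in the Meg3 window at base 61 and in none of the other 10 windows of these genes, whereas 11.6% of all windows held it.

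The annotated span of Mirg (14478 bases, plus strand, GRCm38.p6) contained 10 microRNA hairpins with 19 mature microRNAs, against 1 hairpin in Meg3, 3 in Rian and 15 in Rtl1, of which 13 lie on the plus strand. The arrays measured the host transcript and not the mature microRNAs. A selection of the mature sequences is shown because Mirg had the largest differences of the members between J1 and the other lines. These include the value by which the genes were chosen. Bases 2 to 8, the seed, are in capitals (RefSeq, GRCm38.p6).
miR-410-3p: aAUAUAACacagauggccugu
miR-369-3p: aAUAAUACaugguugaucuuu
miR-409-3p: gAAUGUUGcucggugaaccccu
miR-154-3p: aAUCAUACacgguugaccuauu
miR-496a-5p: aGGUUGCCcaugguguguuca
miR-453: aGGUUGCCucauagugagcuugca
miR-496a-5p and miR-453 share the seed GGUUGCC, and no other pair of the 19 has a seed in common.

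All levels below are log2 of the processed fluorescence signal minus the 75th percentile of the same array, so that 0 stands for a brightness that lay, by array, between 1019 and 1797 intensity units. Levels of different probes are not compared with each other, since probes differ in brightness. Testing required that all arrays of 1 group or more had the probe well above background, and 8 of the 9 member probes passed. All differences and standard errors (SE) came from 1 limma fit of the 6 group means. A probe is called when its limma p, adjusted over all probes tested, is at most 0.05 and its difference is at least 2-fold, which is 1 on the log2 scale. The labels do not say whether replicates were separate cultures, so p-values measure the spread between these samples, which may be technical. On each array 39.7% to 49.0% of spots were well above background, and arrays of the same group correlated at 0.968 to 0.992. The lowest level that counted as well above background was between -3.76 and -2.18, depending on the array. The arrays lay on 3 slides, and all 4 arrays of 3B3l were on slide 3 together with J1-serum replicate 1. Slide 3 was scanned on another day than slides 1 and 2. J1-serum replicate 1 had 1303 outlier spots, against 274 to 556 on the other arrays. It had 1487 saturated spots, against 470 to 1065, and the highest 75th percentile. In a model that also held the groups, 1006 of 26238 probes differed between slide 3 and slide 1, a difference that rests on J1-serum replicate 1, and 3 between slides 2 and 1.

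Of the targeted genes, Dnmt1 was at 1.61 to 2.45 on the J1 and 3B3l arrays and at -1.70 to -1.42 on the TKO arrays. Dnmt3a was well above background on every J1 array and on no array of TKO or 3B3l. Dnmt3b reached 5.44 to 6.01 on the 3B3l arrays, against 2.88 to 3.08 in J1-serum and 0.56 to 0.68 in J1-2i, and was at -0.70 to -0.25 in TKO. Both Dnmt1 and Dnmt3b were still well above background on all 5 TKO arrays. Dnmt3l, the other transgene of 3B3l, was at 5.80 to 5.89 in 3B3l-serum against 5.51 to 5.57 in TKO-serum, and at 4.29 to 4.48 in 3B3l-2i against 2.75 to 3.06 in TKO-2i. Whether these probes lie in the deleted exons was not checked. All 10 mESC markers were well above background on every array. Levels of 20 fibroblast genes, listed because of the feeder cells, were summed. In multiples of the 75th percentile the sum was 32.9 to 41.8 in J1-serum, 2.73 to 3.18 in J1-2i and 7.21 to 8.18 in TKO-serum. It was 3.59 to 3.90 in TKO-2i, 12.3 to 14.8 in 3B3l-serum and 4.53 to 4.86 in 3B3l-2i. Of these genes, 13 to 14 were well above background on the arrays of J1-serum and 6 to 12 on all others. Those others had no feeders, so the sum does not measure feeder cells alone. Of the 14 that were tested, 0 were well above background on no array of J1-serum, 4 on none of TKO-serum and 3 on none of 3B3l-serum. In 2i the number was 4 in J1, 5 in TKO and 6 in 3B3l.

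Counted by probe, 5 of the 8 tested member probes were called in J1-2i relative to J1-serum, where 21.0% of all probes were. In TKO-2i relative to TKO-serum 4 of 8 were called (13.7%), in TKO-serum relative to J1-serum 4 of 8 (15.4%), in TKO-2i relative to J1-2i 3 of 8 (7.68%) and in 3B3l-2i relative to J1-2i 3 of 8 (15.3%). The calls between lines were all increases, and 8.05%, 4.28% and 8.6% of all probes were called higher in these 3 comparisons. In the 2 comparisons given without a test, 3B3l-serum differed from J1-serum by at least 2-fold upwards for 3 of the 8 member probes (10.9% of all probes) and downwards for 1 (9.32%), and 3B3l-2i differed from 3B3l-serum upwards for 1 (5.59%) and downwards for 2 (7.2%). The 3 include Mirg, whose value there chose the genes, so nothing is read from that count beside its share. For the difference between the responses of TKO and J1, limma called 0 of 8 (14.0%), with 1 of 8 at an unadjusted p under 0.05. The probes of a gene are not independent, and some probes passed the filter only through the group where they were bright. One of the 3 probes called in 3B3l-2i, the second Dlk1 probe, was below background in both groups compared. J1-2i, TKO-serum and 3B3l-serum were each compared with the same J1-serum arrays. By direction, the calls between media were Dlk1 and Begain down and Dio3 up in both lines, with Mirg up in J1. Mirg is among the calls in both comparisons with J1-serum, whose Mirg levels had a part in the choice of the genes, and without it the counts were 4 of 7 for J1-2i and 3 of 7 for TKO-serum. Those between lines in either medium were Mirg and Meg3 up in TKO, and Mirg and Dlk1 up in 3B3l-2i.

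Mirg, the microRNA host transcript at the distal end of the non-coding side, had low levels in J1-serum, intermediate levels in J1-2i and high levels in both other lines. The J1-serum arrays were at 0.21, -0.10, -0.32 and -0.23 and the J1-2i arrays at 1.14, 1.28 and 0.86. In TKO it was at 2.76 and 3.10 in serum and at 3.12, 3.23 and 3.18 in 2i. In 3B3l it was at 3.51 and 3.20 in serum and at 3.30 and 2.94 in 2i. No array of TKO or 3B3l overlapped any array of J1, and the 4 groups of those lines overlapped along the order from 3B3l-serum through TKO-2i and 3B3l-2i to TKO-serum. All 16 values were well above background. These are levels in bulk RNA, in which fewer expressing cells and less RNA per cell cannot be told apart.

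**Figure D1:**
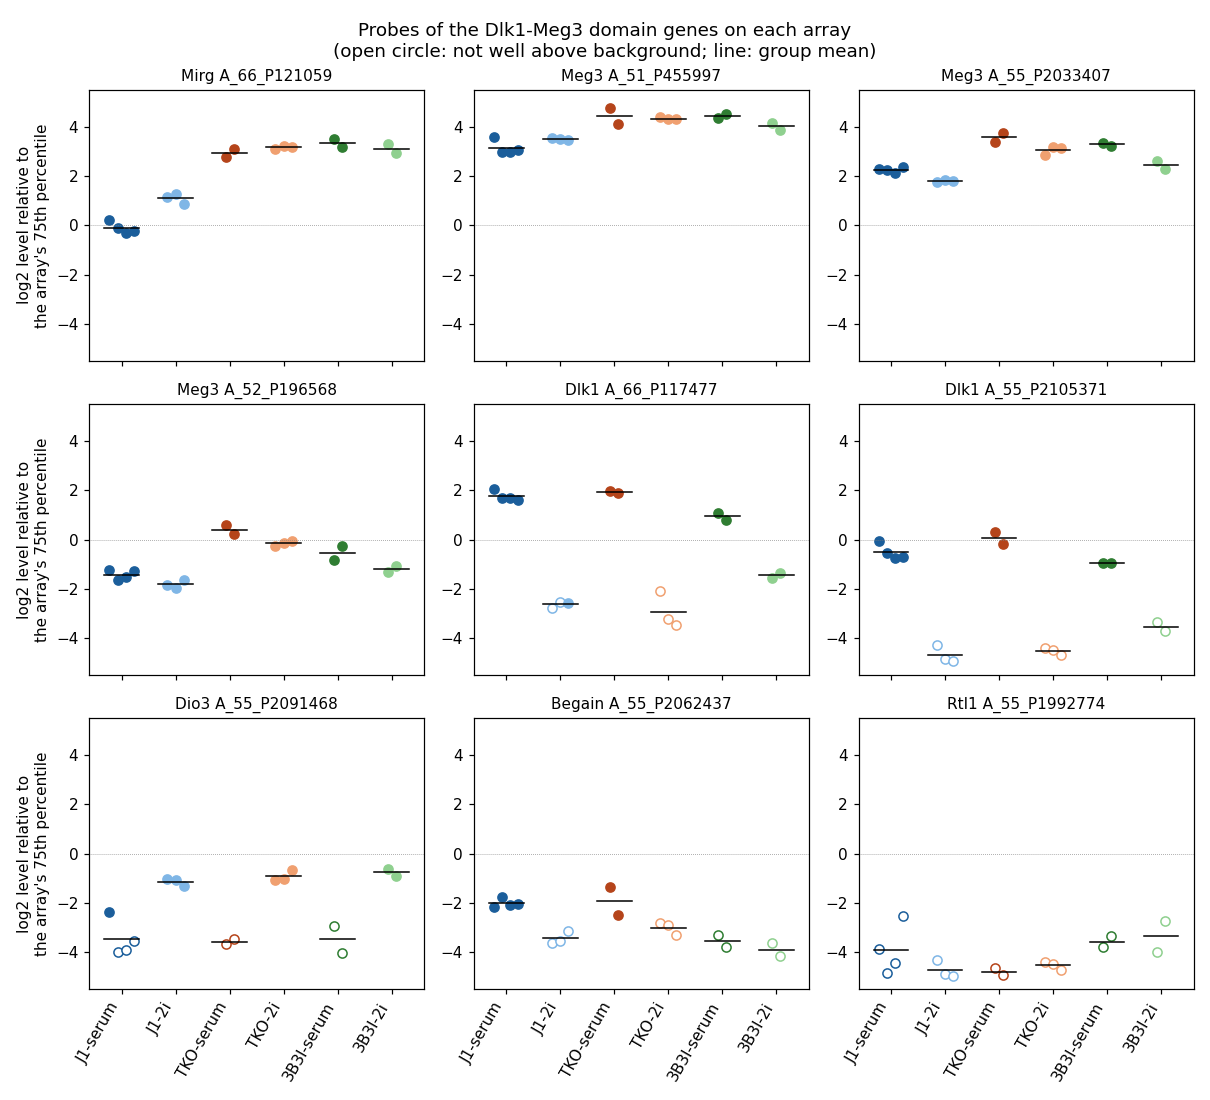
Log2 level with the 75th percentile of each array at 0 (vertical axis) of the 9 member probes on each of the 16 arrays, by group (horizontal axis), with open circles where the probe was not well above background and a line at the group mean. Mirg sits between -0.32 and 0.21 in J1-serum and at 2.76 or higher on every array of TKO and 3B3l, both Dlk1 probes are lower in 2i than in serum in each line, and Dio3 lies between -1.32 and -0.60 in 2i.

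The increase of Mirg in TKO over J1 in 2i was 2.09 (SE 0.17, limma adjusted p 2.6e-06), or 4.25-fold, with 2.21 within slide 1 and 1.84 within slide 2. From the highest, it took place 260 of 26967 probes. In serum TKO stood above J1 by 3.04, or 8.22-fold, and by 3.20 within slide 1. The J1-serum levels of Mirg were part of the difference through which the genes were chosen, so its differences from J1-serum are descriptions without a test. In 3B3l relative to J1 in 2i, where neither mean holds a choosing array, it was 2.03 higher (SE 0.19, adjusted p 5.4e-06). No slide held both of these groups. With the slide as a block the value was, by description, 1.60, which rests on J1-serum replicate 1, the array that ties slide 3 to the others. The serum difference of 3B3l from J1 that was known beforehand was 3.46 (place 19 of 26959), and within slide 3, against J1-serum replicate 1 alone, it was 3.14.

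With 2i the difference of Mirg in J1 was, by description, 1.20, with 1.28 within slide 1 and 1.38 within slide 2. In TKO the difference was 0.25 (SE 0.19, adjusted p 0.34), and in 3B3l, by description, -0.23 with overlapping arrays. The response of TKO minus that of J1, which also rests on the J1-serum levels, was -0.95, just under the 2-fold limit. It went past that limit with quantile normalization (-1.004), array median scaling (-1.09), the authors' table (-1.001), the slide as a block (-1.10), and without J1-serum replicate 1 (-1.06), J1-2i replicate 3 (-1.07) or TKO-serum replicate 1 (-1.12).

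Meg3, the non-coding RNA at the proximal end, was well above background in every group, and all 3 of its probes had higher levels in TKO than in J1. Probe A_51_P455997 was at 3.58, 2.97, 2.99 and 3.04 in J1-serum, 3.55, 3.52 and 3.47 in J1-2i, 4.76 and 4.13 in TKO-serum, 4.38, 4.32 and 4.30 in TKO-2i, 4.37 and 4.52 in 3B3l-serum, and 4.17 and 3.89 in 3B3l-2i. Every TKO and 3B3l array was above every J1 array by this probe. Probe A_55_P2033407, of the same RefSeq transcript, was at 2.12 to 2.35 in J1-serum, 1.77 to 1.86 in J1-2i, 3.40 and 3.75 in TKO-serum, 2.85 to 3.19 in TKO-2i, 3.36 and 3.21 in 3B3l-serum, and 2.63 and 2.29 in 3B3l-2i. By this probe 1 of the 3B3l-2i arrays lay within the range of J1-serum, and the order from TKO-serum through 3B3l-serum and TKO-2i to 3B3l-2i had no overlap between neighbours. Probe A_52_P196568, of another Meg3 transcript, was at -1.65 to -1.26 in J1-serum, -1.97 to -1.66 in J1-2i, 0.57 and 0.23 in TKO-serum, -0.26 to -0.07 in TKO-2i, -0.82 and -0.27 in 3B3l-serum, and -1.33 and -1.08 in 3B3l-2i. TKO was the highest line in each medium by this probe. All values of the 3 probes were well above background.

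In TKO relative to J1 in serum the 3 probes rose by 1.30 (SE 0.19, adjusted p 1.3e-04), 1.32 (SE 0.14, adjusted p 8.5e-06) and 1.83 (SE 0.17, adjusted p 3.9e-06), in the order given above. Within slide 1 the values were 1.43, 1.34 and 1.80. Without TKO-serum replicate 1 the first became 0.99 (adjusted p 0.0036), under the fold limit. In 2i the differences were 0.82 (SE 0.18, adjusted p 0.0053, under 2-fold), 1.25 (SE 0.13, adjusted p 2.3e-05) and 1.67 (SE 0.16, adjusted p 1.4e-05). For 3B3l relative to J1 in 2i the probes stood 0.52, 0.65 and 0.62 higher, with adjusted p-values of 0.057, 0.0040 and 0.018 and none at 2-fold. With the slide as a block the first of these was -0.061. In serum, by description, 3B3l was above J1 by 1.30, 1.03 and 0.88, and by 0.86, 0.98 and 0.71 within slide 3.

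With 2i the 3 probes showed small differences. In J1 the first probe differed by 0.37 (SE 0.17, adjusted p 0.090), whereas the other two differed by -0.44 (adjusted p 0.0093) and -0.40 (adjusted p 0.047). In TKO the differences were -0.11, -0.51 and -0.56 (adjusted p 0.71, 0.017 and 0.034). In 3B3l, by description, they were -0.41, -0.83 and -0.66. None reached 2-fold. The fibroblast sum fell from J1-serum to J1-2i over the same arrays. It was also lower in TKO-serum than in J1-serum, where Meg3 was higher. Its part in these values was not tested.

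**Figure D2:**
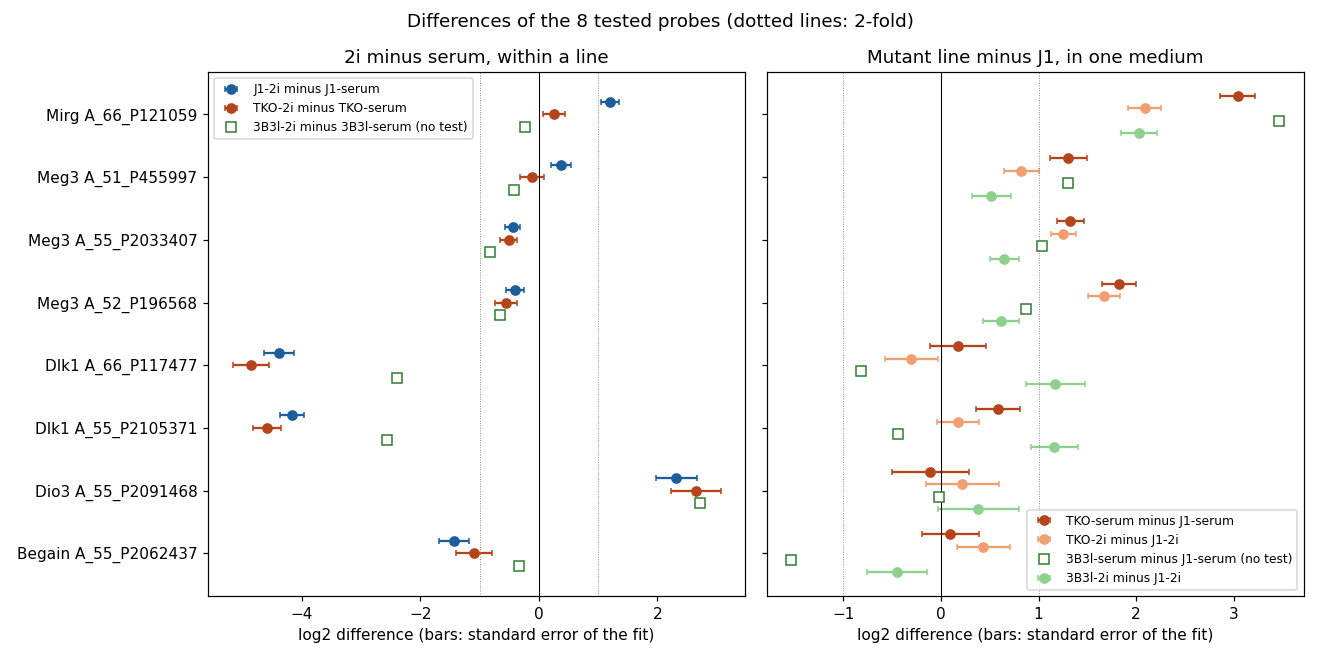
Log2 differences of the 8 tested probes, 2i minus serum within each line (left) and TKO or 3B3l minus J1 within each medium (right), with bars for the SE of the limma fit and open squares for the 2 comparisons given without a test. The differences of Mirg from J1-serum are descriptions too, though drawn with bars. Mirg and the 3 Meg3 probes lie to the right of 0 in every comparison with J1, and the Dlk1 probes lie between -4.86 and -2.40 in the responses to 2i.

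A further 104 probes without a gene name carried mm9 intervals of chromosome 12 in this region, from 110653148 to 111333890, each with an orientation F or R. They were placed by general knowledge of the locus after the probe names had been read, since the member probes carry no position, and no interval was assigned to a gene. The inner 14 of the 22 intervals, chr12:110842149-110988678 on mm9, are described here because of the size of their differences. One of them, chr12:110973190-110987668, has a length of 14479 bases, beside 14478 for the annotated span of Mirg on GRCm38.p6, and coordinates were not converted between builds. In these inner intervals 29 of 38 F probes and 9 of 26 R probes were tested. To set aside probes that passed only through a bright group, counts are given for the 10 F probes that were well above background on all 16 arrays, and no R probe of the inner intervals was.

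Because the inner intervals were picked after their differences had been seen, the counts describe them and nothing is read from the shares beside them. Among the 10 F probes 8 were called higher in TKO-serum than in J1-serum and none lower, against 5.94% called higher of 17421 probes well above background on all 16 arrays. In TKO-2i relative to J1-2i 5 of the 10 were called higher (1.6% of those 17421 probes), and in 3B3l-2i relative to J1-2i 4 of the 10 (5.42%). All 10 differences were above 0 in these 3 comparisons, from 0.45 to 3.48, from 0.29 to 2.19 and from 0.05 to 1.62. With 2i, 3 of the 10 rose in J1 (7.58%) and 0 were called in TKO (4.48% higher and 3.89% lower), where they lay between -0.91 and 0.06. The response of TKO was lower than that of J1 for 3 of them (5.29%). Outside the inner intervals 4 F probes were well above background on all 16 arrays, and their differences were all under 2-fold. Of the 9 tested R probes of the inner intervals, 3 were called higher in TKO-serum than in J1-serum (8.05% of all tested probes). Relative to J1-2i, 2 were called higher in TKO-2i (4.28%) and 3 in 3B3l-2i (8.6%). In these comparisons 0 were called lower, and each R probe was below background on some arrays.

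Probe A_30_P01026190, in chr12:110973190-110987668, was at 0.19, 0.12, -0.02 and -0.02 in J1-serum, 1.52, 1.45 and 1.15 in J1-2i, 3.06 and 3.46 in TKO-serum, 3.19, 3.32 and 3.27 in TKO-2i, 3.05 and 2.98 in 3B3l-serum, and 2.87 and 2.49 in 3B3l-2i. Its J1 groups did not overlap each other or any other group. A_30_P01023076, in the overlapping interval chr12:110944403-110988678, went from -0.45 to -0.18 in J1-serum to 0.83 to 1.37 in J1-2i and 3.04 to 3.29 in TKO. A_30_P01026799, in chr12:110894095-110899517, was at 3.08 to 3.44 in J1-serum, 3.56 to 3.71 in J1-2i, 4.42 to 5.01 in TKO and 4.27 to 5.07 in 3B3l. By contrast A_30_P01030446 in chr12:110909258-110913909 was lower in J1-2i (-1.70 to -1.44) than on 3 of 4 J1-serum arrays (-0.75 to -0.65, the other at -1.54) and higher in TKO (0.15 to 1.08). All 4 of these probes had higher levels in TKO than in J1. The 4 probes were picked after their values were seen.

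**Figure D3:**
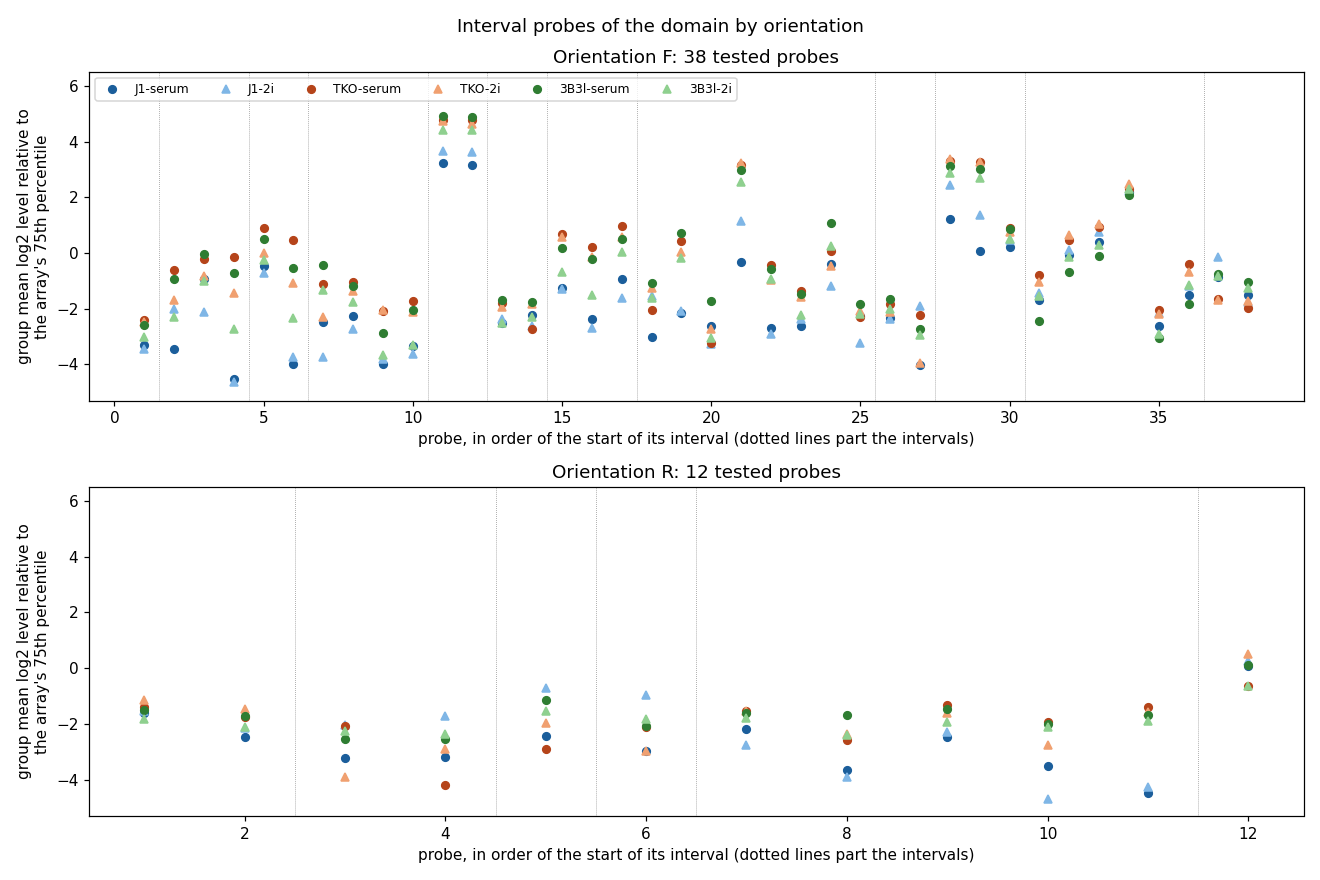
Group mean log2 level with the 75th percentile of each array at 0 (vertical axis) for the 38 tested F probes (top) and 12 tested R probes (bottom) of the region, in the order of their intervals (horizontal axis), with circles for serum and triangles for 2i. Levels under about -2.18 can be below background, within each medium the TKO and 3B3l symbols lie above the J1 symbols for the 10 inner F probes that were well above background on all arrays, and no R probe of those intervals has a group mean above 0.

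Dlk1, a transmembrane protein related to the Notch ligands and expressed from the paternal chromosome, was high in serum and at or near background in 2i. Probe A_66_P117477 was at 2.04, 1.70, 1.67 and 1.60 in J1-serum and -2.79, -2.55 and -2.56 in J1-2i, where 1 of 3 arrays was well above background. In TKO it was at 1.96 and 1.90 in serum and at -2.10, -3.25 and -3.46 in 2i, well above background on none of the last. In 3B3l it was at 1.08 and 0.79 in serum and at -1.57 and -1.35 in 2i, still well above background on both. Probe A_55_P2105371 had levels of -0.75 to -0.07 in J1-serum, -0.17 and 0.30 in TKO-serum and -0.97 and -0.96 in 3B3l-serum, and between -4.94 and -3.34 in 2i, where no array was well above background. By both probes J1-serum and TKO-serum overlapped and 3B3l-serum lay below them. In 2i only 3B3l had every array well above background, by the first probe, and levels of the second probe in 2i have no order. The second probe passed the filter for testing only through the serum groups, which favours a fall with 2i.

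With 2i the 2 probes of Dlk1 fell in J1 by 4.38 (SE 0.25, adjusted p 1.9e-08), with 1 of 3 arrays in 2i measured, and by 4.17 (SE 0.20, adjusted p 3.8e-09), at least 7.43-fold lower. In TKO they fell by 4.86 (SE 0.30, adjusted p 9.5e-08), at least 28.9-fold, and by 4.58 (SE 0.24, adjusted p 2.3e-08), at least 10.6-fold. For each dim array such a bound uses the probe's own level or, where that is higher, the dimmest signal still counted as well above background. Within slides the J1 values were between -4.31 and -3.88, and within slide 1 the TKO values were -5.28 and -4.65. Most of the 2i arrays behind them were below background, so they give a direction and no exact size. In 3B3l, by description, the differences were -2.40, or 5.27-fold lower, and -2.57, at least 2.56-fold lower. The responses of TKO and J1 cannot be set against each other in size, since most 2i arrays of both were below background. Between the serum groups, TKO differed from J1 by 0.17 (SE 0.29, adjusted p 0.70) and 0.58 (SE 0.23, adjusted p 0.061), and 3B3l, by description, by -0.82 and -0.44. The fibroblast sum was 7.21 to 8.18 in TKO-serum and 12.3 to 14.8 in 3B3l-serum against 32.9 to 41.8 in J1-serum. Like Dlk1 it was lower in 2i in each line, at 2.73 to 3.18 in J1, 3.59 to 3.90 in TKO and 4.53 to 4.86 in 3B3l. Its part in the Dlk1 levels was not tested.

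In 2i, the level of Dlk1 in 3B3l exceeded that in J1 by 1.17 by the first probe (SE 0.30, adjusted p 0.0091), with 1 of 3 arrays of J1-2i measured, so that no fold is given. The second probe was also called (adjusted p 0.0024), but it was below background in both groups and its size is not given. With the slide as a block, which again rests on J1-serum replicate 1, the first value was 0.78 (adjusted p 0.20). The call was also lost without 3B3l-2i replicate 2 (1.06, adjusted p 0.064) and with normexp background correction (0.91, under 2-fold). Of 18 genes of the Notch pathway 14 were tested. With 2i, 2 rose and 6 fell in J1, where 9.83% of all probes were called higher and 11.2% lower, and 1 rose and 5 fell in TKO (5.78% and 7.95%), with list medians of -0.09 and -0.18 against 0.05 and 0.08 over all probes. Dll1, a ligand that activates Notch receptors, was below background in 2i and fell at least 21.1-fold in J1 and at least 11.9-fold in TKO. Jag2, another ligand, fell by 2.24 and 1.85 on the log2 scale. Among targets of the pathway, Hes1 rose in both lines, by 1.92 in TKO, and Hes5 fell at least 2.47-fold and at least 2.18-fold. In TKO relative to J1, 2 of the 14 were called higher in serum (Dll3 and Notch4), where 8.05% of all probes were, and 0 in 2i (4.28%).

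Dio3, the deiodinase that inactivates thyroid hormone and the distal protein-coding gene of the domain, was low in serum and measurable in 2i in each line. It was at -2.38, -4.01, -3.90 and -3.53 in J1-serum, well above background only on the first, and at -1.02, -1.07 and -1.32 in J1-2i. In TKO it was at -3.66 and -3.48 in serum and -1.07, -1.01 and -0.67 in 2i, and in 3B3l at -2.94 and -4.02 in serum and -0.60 and -0.91 in 2i. No 2i array overlapped a serum array, and the 3 groups in 2i overlapped each other. Dio3 passed the filter for testing only through the 2i groups, which favours an increase with 2i. The increase with 2i was 2.32 in J1 (SE 0.35, adjusted p 1.1e-04), with 1 of 4 serum arrays measured, and 2.65 in TKO (SE 0.42, adjusted p 2.8e-04), at least 5.60-fold. Within slides 1 and 2 no J1-serum array was above background, and no value is given. In 3B3l, by description, it was 2.72, at least 3.15-fold. Relative to J1-2i the difference in 2i was not called in either line, at 0.22 for TKO (SE 0.37, adjusted p 0.71) and 0.38 for 3B3l (SE 0.42, adjusted p 0.49), and the latter was -1.06 with the slide as a block. Of 12 genes of thyroid hormone transport and action 7 were tested. In J1 with 2i (9.83% of all probes higher and 11.2% lower) Klf9, a hormone-responsive transcription factor, rose by 1.07 and Crym, a hormone-binding protein, fell by 2.64. In TKO 0 rose and 2 fell (5.78% and 7.95%), Hr, a corepressor, at least 2.45-fold, and Crym by 1.12.

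Begain, a gene at the proximal edge of the domain that encodes a synaptic scaffold protein, was dim throughout. It was at -2.17, -1.76, -2.10 and -2.03 in J1-serum and at -1.36 and -2.48 in TKO-serum, and it was below background on all arrays of the other 4 groups, at -4.17 to -2.80. The TKO-serum arrays lay on either side of those of J1-serum. Begain passed the filter for testing only through these serum groups, which favours a fall with 2i, and its p-values carry that choice. With 2i it fell in J1 by 1.43 (SE 0.26, adjusted p 4.7e-04), at least 2.45-fold, which normexp background correction reduced to -0.80. In TKO it fell by 1.09 (SE 0.31, adjusted p 0.015), at least 2.13-fold. That call was lost without TKO-serum replicate 1 (-0.53, adjusted p 0.24), without TKO-2i replicate 3 (-0.94, adjusted p 0.054) and with normexp (-0.72). In 3B3l-serum, by description, it was 1.53 below J1-serum on the log2 scale, at least 1.32-fold lower. Rtl1, a retrotransposon-derived gene expressed from the paternal chromosome, was not well above background on any of the 16 arrays (-4.95 to -2.52) and was not tested.

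How the members moved together was described over the 16 arrays. The Pearson correlations of the 3 Meg3 probes with Mirg were 0.92, 0.73 and 0.68, the 2 Dlk1 probes correlated at 0.98, and Dlk1 and Dio3 at -0.90 by either probe. Dio3 was mostly below background in serum and Dlk1 in 2i, so the values of Dlk1 and Dio3 largely set the 2 media apart. Mirg correlated with the first Dlk1 probe at -0.32. These are descriptions over arrays that fall into 6 groups and carry no test. Outside the domain, of 13624 genes, those most like the first Meg3 probe were Hnrnpl (0.97), Cacna1a (0.97), Tst (0.93), Otub1 (0.92) and Mtcl1 (0.92). Those most like Mirg were Prpf19 (0.98), Cactin (0.97), Ndufab1 (0.97), Spr (0.97) and Lamtor4 (0.97). Their range over group means was smaller than that of Mirg: Prpf19 went from 3.31 in J1-serum through 3.69 in J1-2i to between 4.12 and 4.24 in the other groups.

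Other imprinted genes were set beside the domain by parent of expression, with 1 probe a gene. Of 24 other genes expressed from the paternal chromosome 22 were tested. In TKO relative to J1 in serum 10 were called higher and 2 lower (8.05% and 7.36% of all probes), with a median of 0.41 against 0.02 over all probes, and in 2i 3 higher and 2 lower (4.28% and 3.4%), with a median of 0.53 against 0.08. Among them Nap1l5, a nucleosome assembly protein gene, was at least 2.22-fold higher in TKO-serum, since no J1-serum array measured it. On the log2 scale Magel2 was higher by 1.94 and Plagl1, a growth-related zinc finger gene, by 1.92. In 2i Mest was 1.86 higher and Slc38a4, an amino acid transporter, 2.32 lower on the log2 scale than in J1. With 2i 3 rose and 8 fell in J1 (9.83% and 11.2% of all probes), and 2 rose and 8 fell in TKO (5.78% and 7.95%). Nnat, a neuronal membrane protein gene, was below background in 2i in both lines, at least 8.72-fold lower than in serum in J1 and at least 7.54-fold lower in TKO. Plagl1 rose by 3.16 and 1.76.

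Of 20 other genes expressed from the maternal chromosome 13 were tested, and in TKO relative to J1 1 was called higher and 2 lower in serum (8.05% and 7.36% of all probes), and 0 higher and 2 lower in 2i (4.28% and 3.4%). The median was -0.03 in serum and -0.08 in 2i. Slc22a18, an organic cation transporter of another imprinted domain, had differences of -1.87 in serum and -1.60 in 2i. The others called lower were Osbpl5 in serum (-1.77) and Ppp1r9a in 2i (-2.14). Calcr, the calcitonin receptor gene, was the one called higher, without a size, since J1-serum measured it on 0 of 4 arrays and TKO-serum on 1 of 2. Cdkn1c, a cell cycle inhibitor, fell with 2i in both lines, and in 2i it was measured on 2 of 3 arrays of J1 and 1 of 3 of TKO. Among 26 neighbours of the domain on chromosome 12, 23 were tested, and in TKO relative to J1, beside the same shares of all probes, 0 were called higher and 3 lower in serum, and 1 higher and 0 lower in 2i. Amn, a neighbour with an endocytic role in epithelia, fell with 2i at least 29.8-fold in J1 and by 1.65 on the log2 scale in TKO, where 1 of 3 arrays in 2i measured it.

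**Figure D4:**
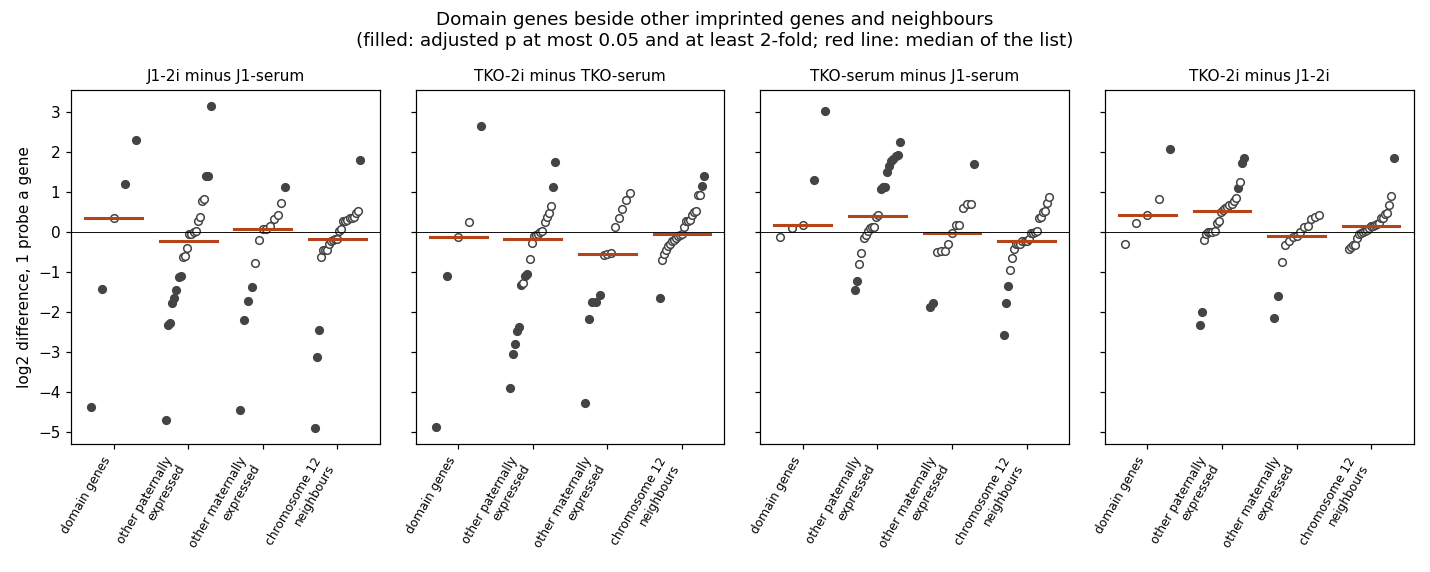
Log2 differences (vertical axis) of the 5 tested domain genes, 22 other paternally and 13 other maternally expressed imprinted genes and 23 chromosome 12 neighbours (horizontal axis) in 4 comparisons, 1 point a gene, filled where called, with a red line at the list median. Mirg is the highest point among the domain genes in TKO minus J1 in serum (3.04) and in 2i (2.09). Its differences from J1-serum are descriptions also where filled, since the J1-serum levels had a part in the choice of the genes.

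Of 20 genes that set or keep imprints and DNA methylation, all were tested. In TKO relative to J1 1 was called higher and 3 lower in serum (8.05% and 7.36% of all probes), the 3 being the deleted Dnmt3a, Dnmt1 and Dnmt3b and the other one Tet1, a demethylation enzyme (1.14). In 2i (4.28% and 3.4%) 2 were higher, Dnmt3l (2.20) and Aff3 (at least 2.51-fold), and the same 3 genes lower. Zfp57, the zinc finger protein that holds methylation at imprinted regions, was at -0.40 in J1-serum, 0.43 in J1-2i, 0.21 in TKO-serum, 0.01 in TKO-2i, 1.31 in 3B3l-serum and 1.47 in 3B3l-2i. It was called in 3B3l-2i relative to J1-2i (1.04) and in no comparison of TKO with J1. Dppa3, which protects methylation at imprinted regions in the early embryo, was below background in 3B3l-2i and at least 13.5-fold lower there than in J1-2i.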

How the data were processed

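Total RNA from each of the 16 samples was hybridised to a one-colour Agilent mouse array. Per the file headers, Agilent Feature Extraction 11.5.1.1 read the scans with a grid on the mm9 build, and each deposited scanner file gives for every spot a background-corrected fluorescence intensity. The authors also deposited a table of normalized log2 values for 30170 probes, which served as an alternative. Its columns were assigned by their labels, and 13 of its 16 columns matched another replicate of their own group better than the labelled one.

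This intensity was put on the log2 scale and the 75th percentile of each array subtracted in Python 3.11.15 (pandas 2.3.3, numpy 2.4.6). Control spots and spots marked as non-uniform or outlier were left out, and replicate spots were averaged. Testing required at least 50% of a probe's spots to be well above background on all arrays of 1 group or more, which 26993 probes met. Group means were compared with lmFit and eBayes in limma 3.58.1 (R 4.3.3), with p-values adjusted by Benjamini-Hochberg over all probes tested. The procedure was tested on simulated data. The number of arrays limits the precision. Bounds ("at least N-fold") set the mean of the brighter group against the mean, per array of the dimmer group, of the higher of the probe's own level and the lowest level well above background.

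The 7 genes, the gene lists and the tests were chosen with earlier results of these data known. All probes of the 7 genes were named. Examples from the lists were called genes with large differences, and some with larger ones were passed over or others added after values were seen. Lists used the brightest probe of each gene. The alternatives were quantile normalization, scaling by the array median, normexp background correction, the authors' table, other filters and fold limits, the slide or the replicate number as a block, leaving out each array, and an unpaired equal-variance test of each pair of groups. Promoter windows and microRNA sequences came from RefSeq tables of GRCm38.p6. Probe positions were not given for the members.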

Additional observations from a re-analysis of the deposited data

Results flagged for a closer look

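In J1-serum, the Meg3 probe A_51_P455997 was highest on replicate 1, at 3.58, while the other 3 arrays lay between 2.97 and 3.04. That array stood apart from the other 3 by 0.885 of the range of the group. It is the J1-serum array on slide 3. In 9 combinations of probe and group that could be looked at in this way, this was the only array to stand apart, and chance alone marks about 1 in 20 such groups.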

How the results depend on the processing

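Of 1592 values recomputed under alternatives, 1541 kept their direction and their side of the threshold. Of those, 1008 came from leaving out 1 array. Where that array was in neither group compared, the difference could not change, so much of this agreement was fixed in advance. Member probes called in J1-2i relative to J1-serum numbered 5 (5 to 5 when each array was left out) and 1 when only probes well above background on all 16 arrays were tested. That filter leaves 4 of the 8 member probes, those of Meg3 and Mirg, and calls 12.9% of all probes. The 1 is Mirg, a description here, and of the 3 Meg3 probes 0 were called. For TKO-2i relative to TKO-serum the count was 4 (3 to 4) and 0 with that filter (8.38% of all probes). For 3B3l-2i relative to J1-2i it was 3 (2 to 3), 1 with that filter (9.18%), 1 with normexp, 1 with the slide as a block and 5 without a fold limit. TKO relative to J1 gave 4 in serum (3 to 4) and 3 in 2i (3 to 3). For the difference between the responses it was 0 (0 to 1), and 1 with quantile normalization, array median scaling, the authors' table, no fold limit and the slide as a block. That 1 was Mirg, whose difference rests on the J1-serum levels behind the choice of the genes and is a description.

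Direction turned with the slide as a block for Dio3 in TKO-serum relative to J1-serum (0.20), and for Meg3 A_51_P455997 (-0.061) and Dio3 (-1.06) in 3B3l-2i relative to J1-2i. When each array was left out in turn, values crossed 0 for Dio3 (-0.30 to 0.25) and Begain (-0.46 to 0.66) in TKO-serum relative to J1-serum for Dio3 in 3B3l-serum relative to J1-serum (-0.56 to 0.51) and for Meg3 A_51_P455997 in TKO with 2i (-0.43 to 0.20). The same held in the difference between the responses for Dio3 (-0.028 to 0.52), Begain (-0.22 to 0.90), Meg3 A_52_P196568 (-0.33 to 0.012) and Meg3 A_55_P2033407 (-0.24 to 0.10). The arrays that turned a value were J1-serum replicate 1 and 3B3l-serum replicate 2 for Dio3, TKO-serum replicates 1 and 2 for Begain and Meg3, and TKO-2i replicate 1 for Meg3 A_55_P2033407. The values of 3B3l-2i relative to J1-2i with the slide as a block rest on J1-serum replicate 1. Dio3 was well above background on 1 of 4 arrays of J1-serum and on 0 of TKO-serum and 3B3l-serum, so its differences between serum groups have no measured direction. None of the values that turned had been called, and the cause was not tested.

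The replicate numbers did not pair the samples: over 33 pairs with the same number the correlation of deviations ran from -0.27 to 0.29, and 6 exceeded 0.1. With the replicate number as a block, the counts were 5, 4, 4, 3, 3 and 0 in the order above with TKO before 3B3l, and all 64 values kept their call. By an unpaired equal-variance test without shared variance, at an unadjusted p under 0.05 with a 2-fold limit, the counts were 5, 3, 4, 3 and 3, and after Benjamini-Hochberg 5, 3, 4, 3 and 2. Dlk1, Dio3, Begain and Rtl1 were limited by signal over background in at least 1 group.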
